A study of Mus musculus with 96 samples.

Results

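Collagen fibres are hardened and cross-linked by a small set of enzymes, and 10 genes of that set were followed here in the mouse heart after myocardial infarction. They were 4 lysyl oxidases (Lox, Loxl1, Loxl2 and Loxl3), 3 lysyl hydroxylases (Plod1, Plod2 and Plod3), 2 catalytic subunits of the collagen prolyl 4-hydroxylases (P4ha1 and P4ha3) and Serpinh1, which encodes the collagen chaperone HSP47. The genes were chosen by name, as 10 of the 50944 genes present in every deposited file, and all 10 were found. P4ha2 and Loxl4 are relatives of these genes and were counted among their partners below.

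Procollagen chains are made in the endoplasmic reticulum, where prolyl 4-hydroxylases hydroxylate prolines that keep the triple helix stable at body temperature, and lysyl hydroxylases hydroxylate lysines that later carry sugars and cross-links. HSP47 binds the folded triple helix and accompanies it towards the Golgi. Outside the cell, lysyl oxidases oxidise lysine and hydroxylysine side chains of collagen and elastin to aldehydes, and these condense into the covalent cross-links that make scar tissue stiff and strong.

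Total RNA of fibroblasts (FB), endothelial cells (EC), hematopoietic cells (HC) and cardiomyocytes (CM) had been sequenced from hearts of male C57Bl/6J mice, 12 to 14 weeks old, at Day 1, 3, 7, 14 and 28 after permanent ligation of the left coronary artery. Day 0 hearts came from mice that had no operation, so surgery and infarction are not separated in any comparison. Each of the 24 groups (4 cell types on 6 days) had 4 libraries, 96 in all, and a library held RNA pooled from 2 or 3 mice. CM had been enriched by slow centrifugation, HC with CD45 beads, EC with CD144 beads and FB by short adhesion to uncoated plastic. On each day the cell types came from the same mice. RNA input and amplification were set by cell type, with the same values for HC and FB. The study prepared its libraries batchwise by cell type, so cell type and library preparation cannot be told apart in any pair.

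Depth was 13503024 to 55758471 reads in CM, 12445124 to 33868990 in EC, 2664338 to 36545715 in FB and 16214419 to 40395291 in HC, and 8 libraries that an earlier analysis of these data had set apart (replicates 2 and 3 of FB Day 3, 4 of FB Day 28, 1 and 2 of EC Day 0, 3 of EC Day 28, and 2 and 4 of HC Day 28) were kept and also left out as an alternative. Their correlation with the rest of their group was 0.930 to 0.980, against 0.937 to 0.997 in the other libraries. At Day 0 the defining markers followed the labels. The 4 FB markers (Fap, Ddr2, Tcf21, Pdgfra) summed to 1864 to 1984 CPM (reads scaled to library size) in FB, against 74.03 to 98.8 in EC, 55.4 to 67.1 in HC and 1.94 to 4.11 in CM. The 4 CM markers (Tnnt2, Tnni3, Nppb, Actc1) summed to a mean of 4472 CPM in CM and also reached 1941 CPM in EC and 2108 CPM in HC. The 8 mural markers, which mark pericytes and smooth muscle, summed to a mean of 3216 CPM in EC and 884 CPM in FB. CM and mural markers were thus present outside the fraction they define.

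Before infarction, FB had the highest mean level of each of the 10 genes. Levels are given here as TPM rescaled so that the protein-coding genes of every library have the same total, which divides by transcript length and leaves out short non-coding RNAs. In FB at Day 0 the order was Serpinh1 (863 ± 83.6, SD, n = 4 here and below), Loxl1 (294 ± 11.9), Loxl2 (146 ± 9.63), P4ha1 (128 ± 16.3), Plod1 (73.9 ± 6.44), Plod2 (65.02 ± 4.33), Plod3 (52.9 ± 3.37), Lox (42.5 ± 6.24), Loxl3 (18.1 ± 1.62) and P4ha3 (1.48 ± 0.370). The library ranges of Loxl2 and P4ha1, of Plod1 and Plod2, and of Plod3 and Lox overlapped, so those neighbours were not separated. The chaperone gene thus stood first, and P4ha3 stood last.

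In EC the order was led by Serpinh1 (91.4 ± 25.2), Plod1 (43.04 ± 6.86), P4ha1 (22.8 ± 2.95) and Plod3 (17.9 ± 5.50), and in HC by Serpinh1 (32.7 ± 5.40), Plod1 (31.7 ± 1.74) and P4ha1 (31.2 ± 4.63), whose ranges overlapped. In CM Serpinh1 reached 12.3 ± 5.31 and no other member passed 3.36 on average. The lysyl oxidases were near the bottom outside FB, with Lox at 1.49 ± 0.319 in EC, 0.711 ± 0.118 in HC and 0.0699 ± 0.0206 in CM. The plot of Day 0 levels shows this wide spacing of the lysyl oxidases and the closer levels of Plod1 in FB, EC and HC.

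**Figure D1:**
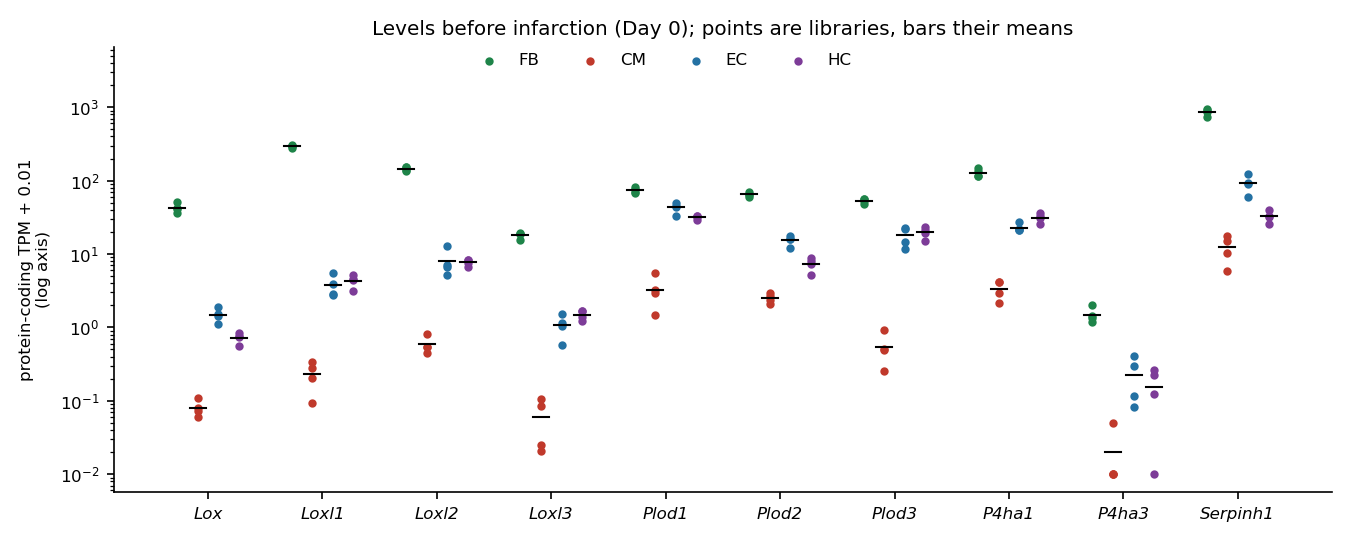
Levels of the 10 genes at Day 0 in protein-coding TPM (log axis, 0.01 added), with 1 point per library and a bar at the mean of the 4 libraries of each cell type. FB lie highest for every gene, and Plod1 had a mean of 73.9 in FB, 43.04 in EC and 31.7 in HC.

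In the comparison of FB with the mean of CM, EC and HC at Day 0, 9 of the 10 genes were called higher in FB by edgeR's quasi-likelihood test (Benjamini-Hochberg adjusted p under 0.05), where 66% of all genes tested were called in one direction or the other. Loxl1 had the largest difference of the 10, 5.72 ± 0.12 on the log2 scale (± SE, 52.6-fold, edgeR adjusted p = 3.27e-17), followed by Lox at 5.14 ± 0.13 (adjusted p = 2.30e-16). Loxl3 was 4.21 ± 0.18 higher, Loxl2 3.70 ± 0.12, P4ha3 2.98 ± 0.44 and Serpinh1 2.70 ± 0.09, and the hydroxylases with broad expression were closer together, with Plod2 at 1.62 ± 0.10, P4ha1 at 1.45 ± 0.09 and Plod3 at 1.36 ± 0.12. The P4ha3 value rests on few reads outside FB and was 4.30 without replicate 1 of CM Day 0. Plod1 did not pass (0.18 ± 0.15, 95% interval -0.11 to 0.46, adjusted p = 0.307). The scales part here, since Plod1 had 75.2 to 90.6 CPM in FB, against 114 to 122 CPM in EC, while FB was the higher on protein-coding TPM. The CM and EC files list transcripts, and the FB and HC files of Day 0 list genes. File kind is therefore not separated from cell type where FB is set against CM or EC. Of the 30 collagen processing partners all were tested and 29 were called higher in FB, as were all 11 tested fibrillar collagen and elastin genes and 9 of 10 ER folding genes, while 6 of 16 hypoxia-inducible genes were higher and 9 lower.

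In FB after infarction, P4ha3 was called higher than Day 0 on all 5 days, Lox, Plod2 and Plod3 on 4, and Loxl3 on 4. Loxl2 was called at Days 3 and 7, Serpinh1 at Day 3 and Loxl1 at Day 14, and Plod1 and P4ha1 on no day. Called genes numbered 4 of 10 at Day 1 (17.9% of all genes tested were called), 7 at Day 3 (49.1%), 6 at Day 7 (14.3%), 6 at Day 14 (10.9%) and 2 at Day 28 (3.49%), and every call was an increase. On both TPM scales Plod2, Plod3 and P4ha3 did not pass at Day 1. P4ha3 was then below 1 TPM as deposited, and the 1 added before the log shrinks such a change. The median log2 change of the 10 genes was 0.39, 1.08, 0.44, 0.41 and 0.09 on these days, and that of all genes tested lay between -0.05 and 0.04. In pooled RNA of a cell fraction, fewer cells of a type and less RNA per cell cannot be told apart.

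**Figure D2:**
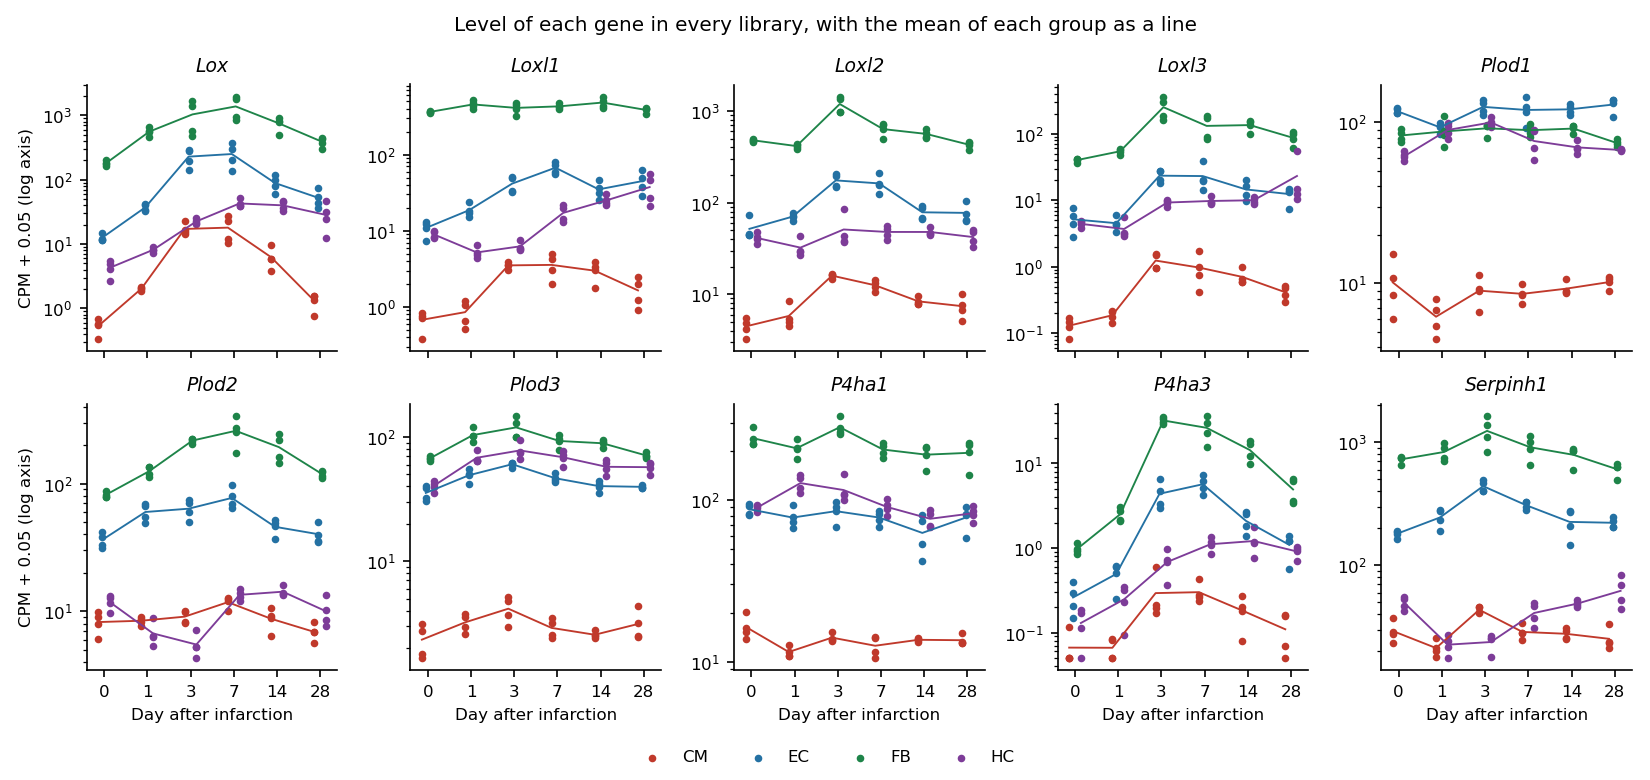
Level of each of the 10 genes in CPM (log axis, 0.05 added) against the day after infarction, with 1 point per library and a line through the mean of the 4 libraries of each cell type. Lox reached 846 to 1962 CPM in FB at Day 7, against 162 to 204 CPM at Day 0, while Plod1 in FB stayed between 69.9 and 109 CPM on every day.

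Lox encodes the founding lysyl oxidase, which starts the cross-links of collagen and elastin. It had 173, 162, 204 and 184 CPM in the 4 FB libraries of Day 0. On the following days it had 464, 545, 569.9 and 659.8 CPM at Day 1, 1678, 568, 484 and 1421 CPM at Day 3 and 1785, 846, 931 and 1962 CPM at Day 7. It then had 811, 495, 924 and 782 CPM at Day 14 and 449, 378, 431 and 299 CPM at Day 28. All 20 libraries after infarction lay above all 4 libraries of Day 0, and replicates 1 and 4 of Days 3 and 7 were higher than replicates 2 and 3. The log2 change against Day 0 was 1.63 ± 0.33, 2.53 ± 0.34, 2.93 ± 0.35 and 2.06 ± 0.34 at Days 1, 3, 7 and 14 (adjusted p = 0.0013, 4.92e-06, 2.56e-06 and 1.85e-04). At Day 28 it was 1.11 ± 0.33 and did not pass (adjusted p = 0.0639), although no Day 28 library overlapped Day 0. Lox did pass at Day 28 with DESeq2 (adjusted p = 0.0115), without the libraries that stand apart (edgeR adjusted p = 0.00825), with only Days 28 and 0 in the fit (adjusted p = 0.00106) and on protein-coding TPM (limma adjusted p = 0.00228). On log2(TPM + 1) as deposited, Lox did not pass at Days 1 and 14 (limma adjusted p = 0.115 and 0.0585). The rise of Lox was 7.64-fold at Day 7, where its mean of 1381 CPM stood against 181 CPM at Day 0.

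Loxl3, a lysyl oxidase with scavenger receptor domains, had 161, 362, 298 and 182 CPM at Day 3, 170.3, 89.1, 83.5 and 182 CPM at Day 7 and 135, 97.7, 149 and 158 CPM at Day 14, against 42.2, 41.3, 40.9 and 36.04 CPM at Day 0. Here replicates 2 and 3 were the high ones at Day 3 and the low ones at Day 7. Its log2 change was 2.63 ± 0.27, 1.71 ± 0.26, 1.75 ± 0.26 and 1.11 ± 0.26 at Days 3, 7, 14 and 28, and the last (adjusted p = 0.017) was lost in 4 of 8 fits that each left out 1 library. Loxl2, which oxidises collagen IV and also acts inside cells, had 985, 1434, 1361 and 982 CPM at Day 3, against 493, 476, 483 and 460.0 CPM at Day 0 (1.32 ± 0.14, adjusted p = 1.93e-07). At Day 7 its change was 0.41 ± 0.14 (adjusted p = 0.0494) and was lost in 7 of 8 such fits. Loxl1, which is needed to maintain elastic fibres in mice, had 318 to 481 CPM at Day 3 and 393 to 472 CPM at Day 7, against 349.8 to 378 CPM at Day 0. Its changes of 0.18 ± 0.13 and 0.25 ± 0.13 did not pass, and that of Day 14 (0.41 ± 0.13, adjusted p = 0.0424) was lost in 6 of 8 fits without 1 library and had the other sign on log2(TPM + 1) as deposited. At Day 7 Loxl1 passed without the libraries that stand apart (0.29, edgeR adjusted p = 0.0401) and with only Days 7 and 0 in the fit (0.30, adjusted p = 0.028). At Day 1 it passed in these settings too (0.36 and 0.35, adjusted p = 0.01 and 0.0061) and with DESeq2 (0.29, adjusted p = 0.0351). Its mean protein-coding TPM at Day 1 was the lower, at 258 against 294 at Day 0.

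Of the lysyl hydroxylases, Plod2 stood out in FB. Its product hydroxylates lysines in the telopeptides of collagen, at the ends of the triple helix, and so decides which kind of cross-link can form. It had 223, 216, 206 and 225 CPM at Day 3 and 270.2, 175, 252 and 339.6 CPM at Day 7, against 79.2, 78.1, 88.02 and 81.99 CPM at Day 0. These libraries did not overlap with Day 0, and the log2 change was 0.61 ± 0.16, 1.41 ± 0.16, 1.66 ± 0.16 and 1.24 ± 0.16 at Days 1, 3, 7 and 14, with the smallest adjusted p at Day 7 (adjusted p = 2.44e-07). On log2(TPM + 1) as deposited, Plod2 did not pass at Days 7 and 14 (limma adjusted p = 0.133 and 0.579). At Day 28 the libraries had 111 to 126 CPM, and the change of 0.54 ± 0.16 did not pass (adjusted p = 0.0665), while it did with DESeq2, with only these days in the fit and on protein-coding TPM (adjusted p = 0.0189, 0.00189 and 0.0166). Plod3, which also transfers sugars to hydroxylysine, changed by 0.63 ± 0.12, 0.84 ± 0.12, 0.47 ± 0.12 and 0.41 ± 0.12 on the same days, and the call of Day 14 (adjusted p = 0.025) was lost in 6 of 8 fits without 1 library and turned in sign on log2(TPM + 1) as deposited. Plod1, the main hydroxylase of helical lysines, did not pass on any day in FB, with log2 differences between -0.15 and 0.15.

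The prolyl 4-hydroxylase subunits parted in FB. P4ha3 had 0.875, 0.795, 1.08 and 0.932 CPM at Day 0, which was 25 to 36 reads per library. It had 2.10, 2.97, 2.06 and 2.70 CPM at Day 1, 29.2, 35.1, 31.3 and 33.2 CPM at Day 3, 30.4, 15.7, 22.8 and 36.6 CPM at Day 7, 18.6, 9.83, 16.8 and 12.2 CPM at Day 14 and 6.46, 3.38, 3.59 and 6.09 CPM at Day 28. No library after infarction overlapped Day 0, and the log2 change was 1.41 ± 0.28, 5.11 ± 0.30, 4.83 ± 0.29, 3.96 ± 0.28 and 2.40 ± 0.28, all called (adjusted p = 1.05e-10 at Day 3 and 2.09e-05 at Day 28). At Day 3 that was 34.6-fold, the largest change of the 10 genes in FB on that day. On log2(TPM + 1) as deposited, the P4ha3 changes of Days 1 and 28 did not pass (limma adjusted p = 0.853 and 0.335). Its mean levels there were below 1 TPM. P4ha1, the common subunit, had 279, 255, 262 and 332 CPM at Day 3, against 281, 221, 239 and 223 CPM at Day 0, and none of its 5 changes passed (log2 -0.21, 0.23, -0.23, -0.34 and -0.30). At Day 7 P4ha3 was still the lower of the pair, at 32.8 ± 12.2 protein-coding TPM and 138 ± 5.49 for P4ha1.

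Because the pair moved so differently, and P4ha1 is a known target of hypoxia-inducible factors, the 250 bases before each start were searched for the core of a hypoxia response element, ACGTG or GCGTG on either strand. RefSeq promoters on GRCm38.p6 were given for 5 of the 10 genes (Plod1, Plod3, P4ha1, P4ha3 and Serpinh1). The windows of P4ha1 (chr10:59323046-59323295, plus strand) and P4ha3 (chr7:100285270-100285519, plus strand) are shown with the matches in capitals, where CACGT and CACGC are the cores on the other strand.
P4ha1: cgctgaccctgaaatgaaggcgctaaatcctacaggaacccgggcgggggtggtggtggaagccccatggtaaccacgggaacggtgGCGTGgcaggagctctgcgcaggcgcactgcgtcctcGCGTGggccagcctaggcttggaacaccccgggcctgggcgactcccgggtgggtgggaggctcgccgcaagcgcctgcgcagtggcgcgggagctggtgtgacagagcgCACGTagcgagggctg
P4ha3: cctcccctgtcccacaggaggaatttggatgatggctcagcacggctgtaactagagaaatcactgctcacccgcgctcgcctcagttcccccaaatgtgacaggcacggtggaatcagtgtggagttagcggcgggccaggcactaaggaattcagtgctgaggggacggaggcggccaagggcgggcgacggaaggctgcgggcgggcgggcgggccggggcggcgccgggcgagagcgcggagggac
The P4ha1 window held 3 matches and the P4ha3 window 0, while Plod3 had 4 and Plod1 and Serpinh1 had 1 each. Of the 32851 windows of this length in the table, 38.6% held at least 1 match, so a match is common, and neither a match nor its absence says whether a factor binds. Of 16 hypoxia-inducible genes tested in FB, 8 were called higher and 1 lower at Day 3, where 49.1% of all genes tested were called, and 7 and 1 at Day 7 (14.3%), with medians of 0.35 and 0.23. By the rule for named genes these were Pgk1 (2.03 ± 0.14) and Ldha (1.58 ± 0.16) of glycolysis, Pdk1 (1.38 ± 0.14), which holds pyruvate back from mitochondria, and the vasodilator gene Adm (-0.99 ± 0.20) at Day 3. At Day 7 they were Adm (-1.20 ± 0.20), Pdk1 (0.83 ± 0.13), Ndrg1 (0.69 ± 0.11) and the prolyl hydroxylase of the oxygen sensing pathway, Egln3 (0.62 ± 0.18).

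Serpinh1 had 1373, 1104, 837 and 1645 CPM in FB at Day 3, against 758, 749.5, 749.9 and 649 CPM at Day 0. Every Day 3 library was above every Day 0 library, and the log2 change of 0.77 ± 0.19 (adjusted p = 0.00236) was the one call of Serpinh1 in FB. At Day 7 it had 650.3 to 1117 CPM, which overlapped Day 0 (0.33 ± 0.19, adjusted p = 0.312). Since it started from the highest level, it was still the most abundant of the 10 at Day 7 (1152 ± 179 protein-coding TPM), followed by Lox (460.0 ± 200.2), which had not been separated from Plod3 at Day 0, and Loxl1 (365 ± 44.04), whose range overlapped that of Lox.

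Genes around the 10 are read against the share of all genes tested that was called in FB, 49.1% at Day 3 and 14.3% at Day 7. Of the 30 partners 18 were called higher and 4 lower at Day 3 (median log2 change 0.69), and 12 and 2 at Day 7 (0.45), with the P4ha1 and P4ha3 partner subunit P4hb (1.97 ± 0.25), the collagen isomerase gene Fkbp10 (2.06 ± 0.16), the procollagen proteinase gene Tll1 (1.95 ± 0.34) and the matricellular gene Sparc (1.61 ± 0.17) named at Day 3. At Day 7 Tll1 (2.53 ± 0.32), the small proteoglycan gene Fmod (2.04 ± 0.41, libraries overlapping Day 0), the procollagen N-proteinase gene Adamts3 (1.69 ± 0.17) and Sparc (1.65 ± 0.17) were named. Of the 12 fibrillar collagen and elastin genes, which encode the substrates of the enzymes, 0 were called at Day 1, 9 were higher at Day 3 and 10 at Day 7, with medians of 2.50 and 2.05. They were led by Col24a1 (5.10 ± 0.49), Col11a1 (3.78 ± 0.50), Col1a1 (3.57 ± 0.36) and Col1a2 (3.26 ± 0.33) at Day 3, and by Col24a1 (6.36 ± 0.49), Col11a1 (5.50 ± 0.52), Col2a1 (4.22 ± 0.91, libraries overlapping Day 0) and Col1a1 (2.63 ± 0.34) at Day 7. Of 10 ER folding genes 6 were higher at Day 3, a share near that of all genes (median 0.49), with Pdia4 (1.41 ± 0.22), Sdf2l1 (1.21 ± 0.32), Pdia6 (0.81 ± 0.17) and Pdia3 (0.72 ± 0.13) in front, and at Day 7 the 1 called gene, Hspa5, was lower (-0.51 ± 0.15).

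Between consecutive days in FB, 7 of the 10 genes were called higher at Day 3 than at Day 1 (25.4% of all genes were called), 4 lower at Day 7 than at Day 3 (36.1%), 0 at Day 14 against Day 7 (0.0482%) and 2 lower at Day 28 than at Day 14 (3.03%). The steepest step was P4ha3 at Day 3 against Day 1, 3.70 ± 0.28 (adjusted p = 2.19e-08), followed by Loxl3 (2.19 ± 0.27) and Loxl2 (1.52 ± 0.14), and Plod2 rose by 0.80 ± 0.16. Lox (0.89 ± 0.33, adjusted p = 0.0476), Serpinh1 (0.57 ± 0.19, adjusted p = 0.0333) and P4ha1 (0.44 ± 0.15, adjusted p = 0.0322) passed here too, and each was lost in 5 or 6 of 8 fits without 1 library. The genes called lower at Day 7 than at Day 3 were Loxl2 (-0.91 ± 0.14), Loxl3 (-0.92 ± 0.26), P4ha1 (-0.46 ± 0.15) and Plod3 (-0.38 ± 0.12), while Lox (0.41 ± 0.32, adjusted p = 0.342) and Plod2 (0.25 ± 0.16, adjusted p = 0.227) were not called. Loxl3 did not pass without the libraries that stand apart (-0.35, adjusted p = 0.342), which leaves out replicates 2 and 3 of Day 3, its high libraries, and Serpinh1 then passed (-0.69). On log2(TPM + 1) as deposited the sign of Lox, Plod2, Plod3, P4ha1 and Serpinh1 turned at Day 3 against Day 1, and that of all 4 called genes turned at Day 7 against Day 3. At Day 28 P4ha3 (-1.56 ± 0.25, adjusted p = 0.0022) and Plod2 (-0.70 ± 0.16, adjusted p = 0.0232) were lower than at Day 14, and the call of Plod2 was lost in 4 of 8 fits without 1 library, while 5 genes were called without the libraries that stand apart. In the test of Day 14 against Day 7, edgeR called 0 of the 10, and the 3 unadjusted p under 0.05 belonged to Lox, Plod2 and P4ha3, with log2 differences of -0.88, -0.42 and -0.88.

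**Figure D3:**
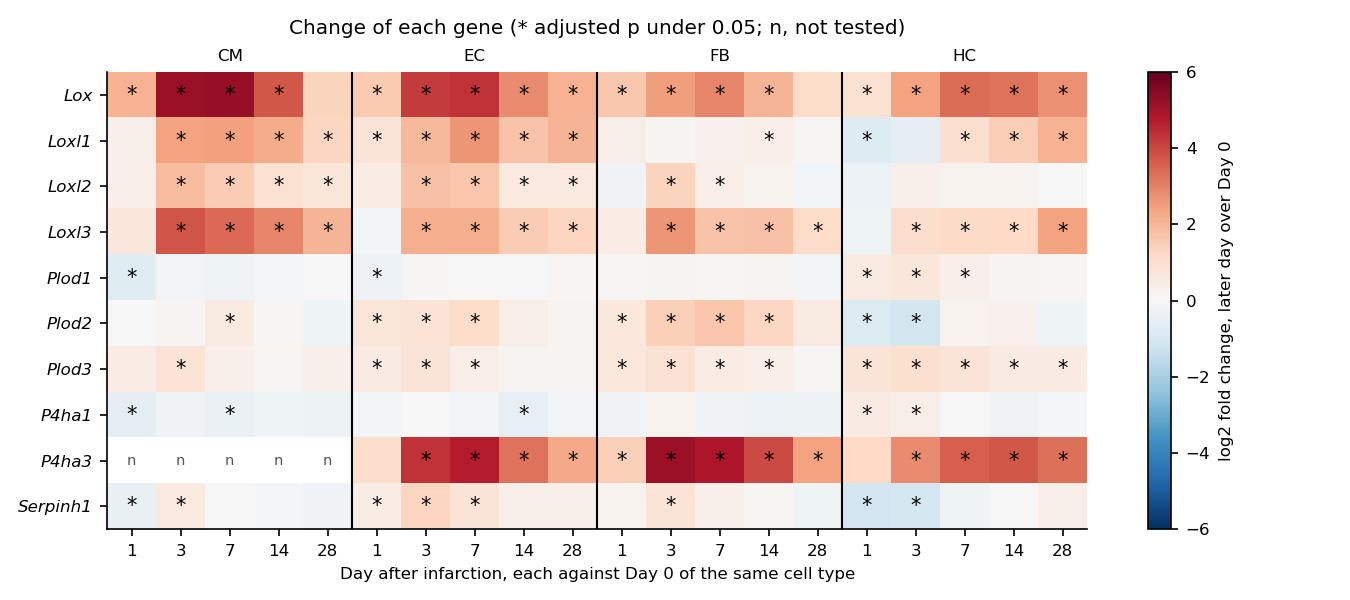
Log2 change of each gene on each later day against Day 0 in the 4 cell types, as fitted by edgeR, with a mark where the adjusted p was under 0.05. In FB the P4ha3 cell of Day 3 is 5.11 and the Plod1 cells lie between -0.15 and 0.15.

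The FB values of Day 3 rest on libraries of unequal quality. Replicates 2 and 3 had 2664338 and 3508819 reads, of which 35.6% and 35.2% were ribosomal RNA, and P4ha3 still had 52 and 62 reads there. Without the libraries that stand apart, 9 of the 10 genes were called in place of 7, since Loxl1 (0.37) and P4ha1 (0.36) then passed, and Lox changed by 3.12, P4ha3 by 5.09 and Serpinh1 by 1.07. On the scale of log2(TPM + 1) as deposited, where protein-coding genes held 9.61% of TPM in FB at Day 3 and 23.5% at Day 0 and where the median of all genes shifted by -0.70, Loxl1, Loxl2, Plod1, Plod2, Plod3, P4ha1 and Serpinh1 turned lower than Day 0. On protein-coding TPM the signs of all 7 called genes were kept, 5 of them passed, and Plod3 (0.37) and Serpinh1 (0.20) did not.

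Other cell type markers moved in the FB libraries along with these genes. The 4 FB markers summed to 0.498 and 0.702 times their Day 0 level at Days 3 and 7, and the 6 activated fibroblast markers (Postn, Cthrc1, Acta2, Tnc, Fn1, Comp) to 8.76 and 16.1 times. The 5 mesothelial markers (Msln, Upk3b, Wt1, Lrrn4, Upk1b) were called higher as 4 of 5 at Day 1 and 5 of 5 from Day 3 on, with sums of 91.2 to 178 CPM at Day 3 and 112 to 260.0 CPM at Day 7, against 12.01 to 17.4 CPM at Day 0. The 4 CM markers reached 12.2 to 520.3 CPM at Day 3, against 22.5 to 43.96 CPM at Day 0, and the 6 macrophage markers 11.7 to 46.6 CPM, against 7.92 to 8.30 CPM. The mural markers summed to 0.561 times Day 0 at Day 3, and the EC markers to 0.724 times. No marker of these lists was at 0 in an FB library, and their part in the changes of the 10 genes was not tested.

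In EC, 8 of the 10 genes were called higher at Day 3 (45.5% of all genes tested were called) and 8 at Day 7 (37.6%), with the lysyl oxidases and P4ha3 in front. At Day 1 there were 5 higher and 1 lower (19%), at Day 14 5 higher and 1 lower (27%), and at Day 28 5 higher (33.7%). The medians of the 10 changes were 0.46, 1.52, 1.37, 0.47 and 0.44, and those of all genes lay between -0.04 and 0.03.

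Lox had 283, 294, 140.5 and 197 CPM in EC at Day 3 and 201, 369, 299 and 136 CPM at Day 7, against 14.99, 11.8, 11.7 and 11.5 CPM at Day 0. Every library after infarction was above the 4 of Day 0, and the log2 change was 1.58 ± 0.30, 4.19 ± 0.32, 4.33 ± 0.32, 2.83 ± 0.31 and 2.07 ± 0.30, all called. Loxl1 had 59.95, 73.9, 79.99 and 55.7 CPM at Day 7, against 12.1, 10.7, 13.1 and 7.38 CPM at Day 0, and changed by 0.78 ± 0.24, 1.95 ± 0.25, 2.64 ± 0.25, 1.69 ± 0.25 and 2.05 ± 0.25, of which that of Day 1 was lost in 4 of 8 fits without 1 library. So in EC it rose 6.24-fold at Day 7 and was still 4.15-fold up at Day 28. Loxl2 rose by 1.76 ± 0.19 and 1.65 ± 0.19 and Loxl3 by 2.20 ± 0.33 and 2.18 ± 0.33 at Days 3 and 7.

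P4ha3 had 4.70, 6.45, 3.28 and 2.90 CPM at Day 3 and 5.04, 7.25, 6.09 and 4.14 CPM at Day 7, against 0.0993, 0.343, 0.243 and 0.154 CPM at Day 0, when it was counted in 2 to 8 reads per library. Its change was 4.32 ± 0.40, 4.70 ± 0.40, 3.24 ± 0.40 and 2.29 ± 0.42 from Day 3 on, all called. P4ha1 did not pass at Days 1, 3, 7 and 28, and at Day 14 it was lower (-0.49 ± 0.17, adjusted p = 0.0345), a call that was lost in 4 of 8 fits without 1 library and whose sign turned on both TPM scales. Plod2 rose by 0.73 ± 0.16, 0.81 ± 0.16 and 1.09 ± 0.16 at Days 1, 3 and 7, with 68.6, 79.6, 96.7 and 63.9 CPM at Day 7, against 33.3, 42.1, 31.4 and 37.9 CPM at Day 0. Plod3 rose by 0.47 ± 0.09, 0.77 ± 0.09 and 0.39 ± 0.09 on the same days. Plod1 was lower at Day 1 (-0.34 ± 0.11, adjusted p = 0.032), a call lost in 4 of 8 such fits and of the other sign on log2(TPM + 1), and was not called later.

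Serpinh1 had 497, 465, 400.2 and 399 CPM at Day 3, against 187, 164, 190.5 and 180.0 CPM at Day 0, and rose by 1.29 ± 0.15 at Day 3 and 0.77 ± 0.15 at Day 7. Its call of Day 1 (0.44 ± 0.15, adjusted p = 0.0436) was lost in 6 of 8 fits without 1 library. On both TPM scales Loxl1, Plod1, Plod3 and Serpinh1 did not pass at Day 1. Of the 30 partners 27 were higher and 2 lower in EC at Day 3, and 26 and 1 at Day 7. The substrates had 9 of 12 higher at Day 3 and 11 of 12 at Days 7, 14 and 28, and all 10 ER folding genes were higher at Day 3. Hypoxia-inducible genes had 5 of 16 higher and 3 lower at Day 3, near the share of all genes (45.5%). The median log2 change of all genes on the deposited TPM scale was 0.39, 0.42 and 0.51 at Days 7, 14 and 28, and all 10 genes were called at Day 28 there and on protein-coding TPM (median 0.87), so the counts of EC at late days depend on the scale.

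The rise in EC went along with FB markers. The 4 FB markers summed to 121 to 169 CPM at Day 3 and 161 to 328 CPM at Day 7 in EC, against 74.03 to 98.8 CPM at Day 0, or 1.40, 1.69, 2.61, 1.41 and 2.25 times on the 5 later days, and none was at 0. The activated fibroblast markers summed to 4.74 and 6.97 times Day 0 at Days 3 and 7. All 8 mural markers were called lower at Day 3, and their sum was 0.390 and 0.497 times Day 0 at Days 3 and 7, where the EC markers were at 0.859 and 0.808 times.

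Set against the FB level of the same day in protein-coding TPM, the mean EC level of Lox was 3.49, 4.56, 11.2, 14.9, 9.33 and 11.3% at Days 0, 1, 3, 7, 14 and 28. For Loxl1 it was 1.28, 2.87, 6.38, 11.3, 6.15 and 10.1%, and for the 4 FB markers 2.09, 3.39, 7.28, 10.7, 6.72 and 9.56%. Lox thus lay above these FB markers on each of the 6 days, and Loxl1 below them on 4 days and above them at Days 7 and 28. The activated fibroblast markers stood at 33.1, 24.8, 15.6, 17.4, 12.1 and 18.2%, and both Lox and Loxl1 lay below them on each day. Loxl2 stood at 5.47, 9.09, 7.64, 17.1, 10.2 and 15.6%, P4ha3 at 14.6, 17.2, 11.4, 18.4, 14.7 and 22.3% and Plod1 at 58.2, 54.5, 92.2, 92.04, 100.02 and 162%. How much of the EC signal came from FB RNA was not tested.

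**Figure D4:**
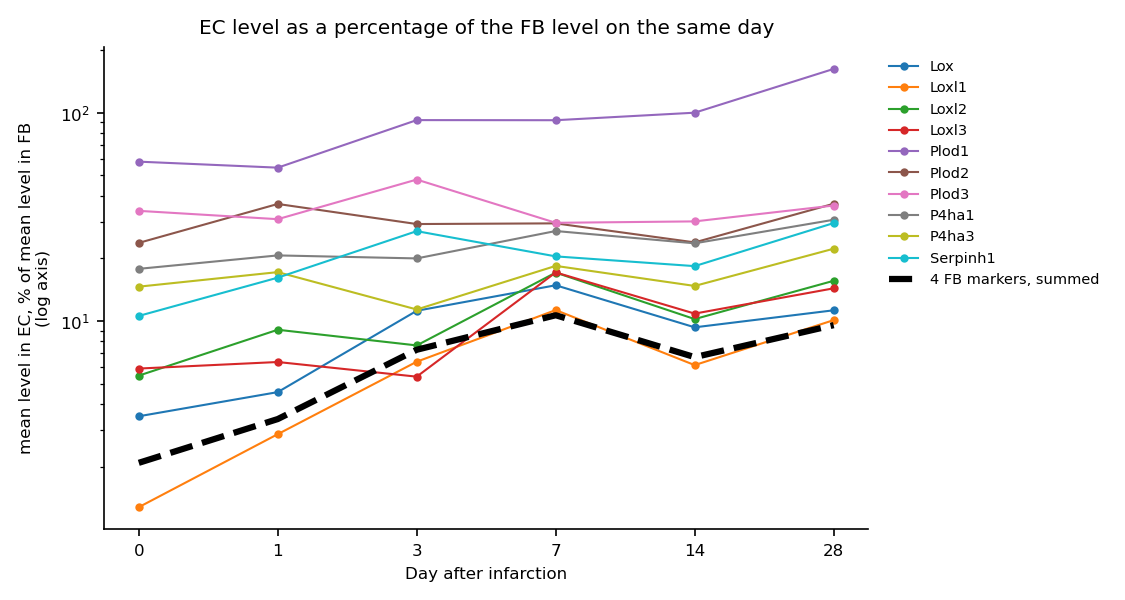
Mean level in EC as a percentage of the mean level in FB on the same day, in protein-coding TPM (log axis), for the 10 genes and the sum of the 4 FB markers. Loxl1 had 1.28% at Day 0 and 11.3% at Day 7, and the FB markers had 2.09% and 10.7% on these days.

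A direct test of the change in EC minus the change in FB called 4 of the 10 genes at Day 3 (34.9% of all genes were called) and 3 at Day 7 (12%), all with the larger change in EC. Each change lies within 1 kind of file, but all EC files list transcripts and all FB files list genes. File kind and cell type therefore coincide in this test. Loxl1 differed by 1.94 ± 0.28 at Day 3 (adjusted p = 1.85e-06) and 2.42 ± 0.28 at Day 7 (adjusted p = 7.04e-08), where it rose in EC and did not pass in the main fit of FB. Lox differed by 1.80 ± 0.47 and 1.41 ± 0.47 (adjusted p = 0.00299 and 0.0401), Loxl2 by 0.64 ± 0.23 and 1.26 ± 0.23, and Serpinh1 by 0.68 ± 0.26 at Day 3. Without the libraries that stand apart Loxl1 alone was left at Day 3 (1.76), with Lox at 1.28 (adjusted p = 0.074), Loxl2 at 0.62 (adjusted p = 0.104) and Serpinh1 at 0.28 (adjusted p = 0.528), while all 3 calls of Day 7 were kept. The call of Lox at Day 7 was lost in 10 of 16 fits without 1 library and with the replicate number within each day as a block (adjusted p = 0.0847), while those of Loxl1 and Loxl2 were kept in all of these. Plod2 had the opposite sign, -0.42 ± 0.23 and -0.55 ± 0.23, and did not pass. For P4ha3 the 95% interval of the difference was -1.67 to 0.43 at Day 3 and -1.38 to 1.16 at Day 7, which is wide. All 4 FB markers were themselves called with the larger change in EC at Day 3, and 3 of them at Day 7, and the median over all genes was 0.13 at Day 3.

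In CM, 9 of the 10 genes had enough reads to be tested and P4ha3 did not. Called genes were 1 higher and 3 lower at Day 1 (11.4% of all genes were called), 6 higher at Day 3 (30.5%), 5 higher and 1 lower at Day 7 (13.3%), 4 higher at Day 14 (13.8%) and 3 higher at Day 28 (3.58%). Lox had 15.2, 23.1, 16.3 and 14.1 CPM at Day 3 and 12.1, 22.7, 10.3 and 26.8 CPM at Day 7, against 0.522, 0.497, 0.624 and 0.287 CPM at Day 0. No library of these days overlapped Day 0, and the log2 change was 2.07 ± 0.38, 5.18 ± 0.37, 5.24 ± 0.37 and 3.71 ± 0.36 at Days 1, 3, 7 and 14. At Day 3 that was 36.2-fold over a Day 0 level of 12 to 21 reads per library. Loxl3 rose by 3.77 ± 0.43, Loxl1 by 2.44 ± 0.35, Loxl2 by 1.86 ± 0.20, Plod3 by 0.82 ± 0.22 and Serpinh1 by 0.57 ± 0.15 at Day 3. On both TPM scales Serpinh1 did not pass at Day 3, nor Loxl3 at Days 7 and 14. Loxl3 had means of 0.0493, 0.192 and 0.137 protein-coding TPM at Days 0, 7 and 14. The 1 added before the log shrinks changes at such levels, so these scales could hardly show its change.

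Calls among the hydroxylases of CM went both ways. P4ha1 had 11.5, 12.7, 10.7 and 10.8 CPM at Day 1, against 20.3, 15.3, 16.1 and 13.7 CPM at Day 0, and was lower by -0.52 ± 0.12 (adjusted p = 0.00386). Plod1 (-0.72 ± 0.21, adjusted p = 0.0259) and Serpinh1 (-0.46 ± 0.15, adjusted p = 0.0464) were lower at Day 1 too, but these calls were lost in 4 and 6 of 8 fits without 1 library. All 3 were lost with only Days 1 and 0 in the fit (adjusted p = 0.0681 for P4ha1), and neither they nor Lox passed at Day 1 on either TPM scale. For Lox these scales could hardly show a change. Its means were 0.0699 and 0.353 protein-coding TPM at Days 0 and 1, below the 1 added before the log. At Day 7 P4ha1 was again lower (-0.39 ± 0.12, adjusted p = 0.025, lost in 3 of 8 fits and of the other sign on protein-coding TPM) and Plod2 was higher (0.52 ± 0.15, adjusted p = 0.0229, lost in 5 of 8 fits). The 3 calls of Day 28, Loxl1 (1.29), Loxl2 (0.72) and Loxl3 (2.03), had adjusted p of 0.0263 to 0.0495, and 0 to 4 genes were called there once a library was left out. P4ha3 was counted in 5 to 26 reads per library at Day 3, against 0 to 2 at Day 0.

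The CM libraries also gained markers of other cells. The FB markers summed to 6.13 to 8.62 CPM at Day 3 and 7.34 to 10.1 CPM at Day 7, against 1.94 to 4.11 CPM at Day 0 (2.44 and 2.86 times), and none of the 4 was at 0 in a library. The macrophage markers summed to 23.7 times and the mesothelial markers to 4.72 times Day 0 at Day 3. The activated fibroblast markers summed to 4.23 and 5.59 times Day 0 at Days 3 and 7. The mean Lox level in CM was 0.164, 0.282, 1.30, 0.807, 0.610 and 0.176% of that in FB on the 6 days, and the FB markers were at 0.0729, 0.112, 0.411, 0.261, 0.177 and 0.105%. The activated fibroblast markers were at 1.76, 1.55, 0.854, 0.597, 0.57 and 0.527%. Of the 28 tested partners 14 were higher and 1 lower at Day 3, and all 10 tested substrates were higher at Days 3 and 7, while ER folding genes had 4 of 10 and hypoxia-inducible genes 3 of 15 higher and 7 lower at Day 3. The part of other cells' RNA in these values was not tested.

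In HC, the early calls went both ways. At Day 1, 4 of the 10 genes were higher and 3 lower (42% of all genes were called), at Day 3 6 were higher and 2 lower (46.4%), and later all calls were increases, with 6 at Day 7 (28.3%), 5 at Day 14 (12.9%) and 5 at Day 28 (21.7%). HC files of Days 1 and 7 list transcripts, and those of the other HC days list genes. File kind and day therefore cannot be told apart in HC at Days 1 and 7 against Day 0. Plod2 had 5.19, 7.12, 5.23 and 4.27 CPM at Day 3, against 9.65, 12.7, 11.5 and 13.2 CPM at Day 0, and was lower by -0.82 ± 0.19 at Day 1 and -1.11 ± 0.19 at Day 3. Serpinh1 had 26.7, 25.4, 24.97 and 17.9 CPM at Day 3, against 42.7, 46.5, 54.9 and 53.1 CPM at Day 0, and was lower by -1.13 ± 0.18 and -1.05 ± 0.18. Neither gene overlapped with Day 0 on these days, and neither was called from Day 7 on. Loxl1 was lower at Day 1 (-0.79 ± 0.24, adjusted p = 0.0115) and higher from Day 7 on, with 2.07 ± 0.24 at Day 28.

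The 3 genes with the smallest gap between HC and FB at Day 0 (Plod1, Plod3 and P4ha1) rose in HC at the same time. Plod1 had 108, 93.1, 97.1 and 101 CPM at Day 3, against 60.5, 57.4, 62.8 and 66.1 CPM at Day 0, and rose by 0.54 ± 0.11 and 0.69 ± 0.11 at Days 1 and 3. It was also called higher at Day 7. That call was lost on both TPM scales, without a filter on low counts and with only Days 7 and 0 in the fit (edgeR adjusted p = 0.118 and 0.101 for the last 2). Several fits without 1 library lost it too. Plod3 had 75.5, 66.6, 74.6 and 94.95 CPM at Day 3, against 39.5, 35.6, 41.9 and 44.2 CPM at Day 0, and rose by 0.76 ± 0.13, 0.95 ± 0.13, 0.77 ± 0.12, 0.51 ± 0.12 and 0.50 ± 0.12. P4ha1 had 137, 144, 109.8 and 118 CPM at Day 1, against 93.2, 84.7, 92.3 and 88.7 CPM at Day 0, and rose by 0.50 ± 0.12 and 0.36 ± 0.12. On log2(TPM + 1) as deposited Plod1 did not pass at Days 1 and 3 (limma adjusted p = 0.924 and 0.207). Nor did P4ha1 on these days (0.721 and 0.351) or Plod3 at Days 1, 14 and 28 (0.4, 0.323 and 0.16). The P4ha1 call of Day 3 was lost without replicate 4 of that day (edgeR adjusted p = 0.106). At Day 3 these 3 stood at the head of the 10 genes in HC, at 56.2 ± 16.9, 48.6 ± 15.6 and 47.7 ± 6.98 protein-coding TPM with overlapping ranges, and Serpinh1 followed at 20.5 ± 3.47. Lox had 38.8, 41.8, 39.1 and 51.5 CPM at Day 7, against 2.60, 4.83, 5.49 and 4.04 CPM at Day 0, and rose by 0.93 ± 0.27, 2.41 ± 0.28, 3.34 ± 0.29, 3.24 ± 0.28 and 2.74 ± 0.28. Loxl3 had 14.7, 12.4, 10.6 and 54.8 CPM at Day 28, against 3.79, 4.60, 4.75 and 4.32 CPM at Day 0, and rose by 2.40 ± 0.37, which was 1.54 without replicate 4, a library that stands apart. At Day 3 it rose by 1.07 ± 0.36, and its call of Day 14 (1.19 ± 0.37) was lost in 8 of 8 fits without 1 library. P4ha3 rose by 3.58 ± 0.53 at Day 7, at 0.790 to 1.29 CPM, against 0 to 0.137 CPM at Day 0 (20 to 34 reads per library, against 0 to 3), so the fitted size depends on the prior count. Loxl2 was not called on any day in HC by edgeR, but passed on protein-coding TPM at Days 3, 7, 14 and 28 (limma, 0.52, 0.69, 0.61 and 0.50). The median of all genes on that scale was itself 0.23, 0.48, 0.35 and 0.42 on these days, so much of this rise was shared by genes at large.

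All 4 FB, 4 EC and 8 mural markers were called lower in HC at Days 1 and 3. The FB markers summed to 21.5 to 33.2 and 16.9 to 28.6 CPM at Days 1 and 3, against 55.4 to 67.1 CPM at Day 0 (0.477 and 0.381 times). The EC markers were at 0.367 and 0.193 times and the mural markers at 0.298 and 0.137 times Day 0, and no marker of the 3 lists was at 0. At Day 28 the FB markers were at 1.71 times and the HC markers at 1.05 times. The activated fibroblast markers went the other way, with a mean sum of 5813 CPM at Day 1, against 211 CPM at Day 0. Their sum was 27.6, 14.6, 13.2, 11.6 and 5.73 times Day 0 at Days 1, 3, 7, 14 and 28. At Day 1 it was 438% of the FB level in protein-coding TPM, where the FB markers were at 1.25%. Which genes of the list made up this sum, and which cells it came from, was not tested. Of the 30 partners 7 were higher and 16 lower at Day 1, the substrates had 0 of 11 higher and 4 lower, and the ER folding genes had 10 of 10 higher and the hypoxia-inducible genes 11 of 16 higher and 1 lower. On both TPM scales Loxl1 did not pass at Day 1. On protein-coding TPM Plod2 was lower by -0.36 and -0.83 at Days 1 and 3 and did not pass, and Serpinh1 was lower by -0.82 and -0.64 and passed. The median of all genes on that scale was 0.24 and 0.23 at Days 1 and 3. The part of stromal RNA in these values was not tested.

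For Plod2 the files of EC, CM and 2 HC days list transcripts, which separates 2 forms of the enzyme. The long form, known for hydroxylating telopeptide lysines, includes an exon of 63 bases (21 codons, in frame), exon 14 of 20, at chr9:92601985-92602047 on the plus strand of mm10. The exon is shown in capitals between 10 bases of each neighbouring exon, because it is the stretch that sets the forms apart. The annotated transcripts also differ by a few bases at their outer ends.
Plod2 exon 14: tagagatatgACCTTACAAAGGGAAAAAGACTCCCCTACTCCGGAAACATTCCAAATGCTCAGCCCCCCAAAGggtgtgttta
In EC the long form made up 21.98, 33.2, 35.2 and 17.4% of the reads of both forms at Day 7, against 5.04, 15.2, 7.81 and 17.6% at Day 0. The means were 11.4% ± 5.97, 14.96% ± 4.63, 20.7% ± 8.74, 26.98% ± 8.64, 23.96% ± 8.01 and 30.1% ± 14.9 at Days 0, 1, 3, 7, 14 and 28, from 361 to 1684 reads per library. The spread between libraries was large, and 1 library of Day 7 lay within the range of Day 0. In an exact two-sided permutation test over the 4 and 4 libraries, none of the 5 days in EC passed, with the smallest p at Day 7 (difference of 15.5 percentage points, exact p = 0.0571, adjusted over 10 comparisons 0.229), where 0.0286 is the smallest p the design allows before adjustment. A comparison at that p would pass after adjustment only if many of the 10 reached it. The lack of a call therefore says little. In CM the mean was 7.61% ± 2.84 at Day 3 and 9.65% ± 8.98 at Day 28, against 22.3% ± 12.8 at Day 0, and no difference passed (exact p = 0.114 for both). HC had 6.63% ± 10.7 at Day 1 and 43.7% ± 14.99 at Day 7, with no Day 0 files of this kind. The comparison was chosen after these shares were seen, and reads shared by both forms are split by the authors' estimate.

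**Figure D5:**
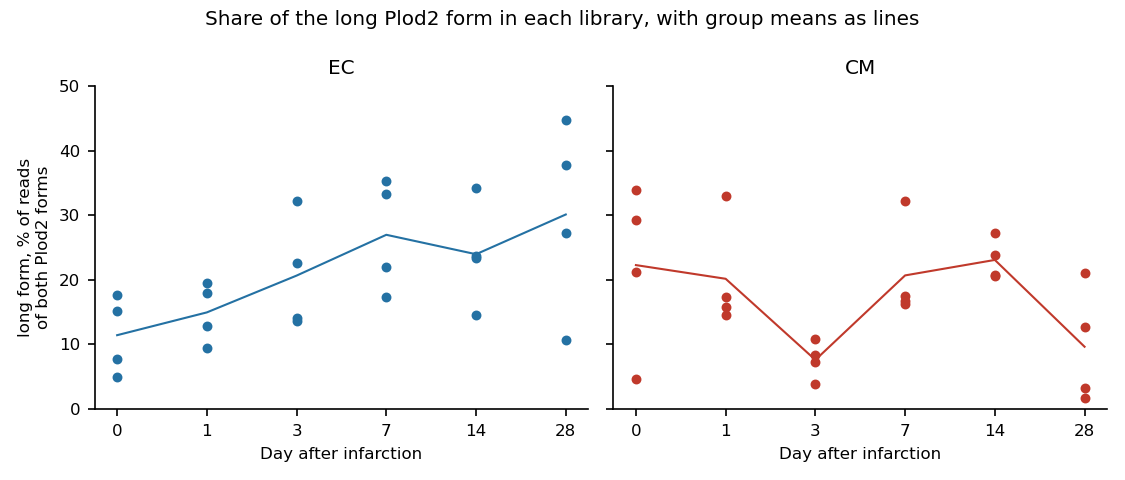
Long form of Plod2 as a percentage of the estimated reads of both forms against the day after infarction in EC and CM, with 1 point per library and a line through the means. The 4 EC libraries of Day 28 range over 10.6% to 44.8%, and those of Day 0 over 5.04% to 17.6%.

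The genes whose mean levels ran most like 4 of the members were looked up over the 24 groups, with Pearson's r of mean log2(TPM + 1) among 8072 protein-coding genes, as a description in which points share libraries and cell type preparation. For Lox they were the collagen V gene Col5a2 (r = 0.984), C1qtnf6 (0.979) and the collagen I gene Col1a1 (0.976). For Plod2 they were Farp1 (0.985), Adgra2 (0.984) and Plagl1 (0.979), and for Serpinh1 Plat (0.993), Fkbp9 (0.990) and Lamb1 (0.990). For P4ha3 they were Ccn4 (0.973), Cthrc1 (0.938) and Ptn (0.923), with lower values than for the other 3 members. Fkbp9 is also among the 30 partners, and Col1a1 and Col5a2 among the substrates.

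On mm10 the 10 genes lie on 8 chromosomes, and their neighbours bear on the counts. Serpinh1 at chr7:99345376-99353239 and P4ha3 at chr7:100285520-100319699 share chromosome 7, and Loxl1 at chr9:58287738-58313186 and Plod2 at chr9:92542223-92608428 share chromosome 9. Loxl3 at chr6:83034173-83052562 overlaps Htra2 and Plod3 at chr5:136987019-136996648 overlaps Znhit1, each on the other strand, Lox at chr18:52516067-52529867 overlaps AC161119.1, Loxl2 at chr14:69609068-69695834 overlaps Gm27177 and Gm37513, and Plod2 overlaps Gm38391. Whether reads were assigned by strand is not given in the sources used here, so for these 5 genes reads of the partner may be counted in. No annotated gene overlaps Loxl1, Plod1 at chr4:147909753-147936767, P4ha1 at chr10:59323296-59373304, P4ha3 or Serpinh1. The 10 genes were counted with different reads, but their levels in a library share its composition and are not independent of each other.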

How the data were processed

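Total RNA libraries had been made with a ribosomal RNA depleting kit, trimmed with Trim Galore and quantified with STAR 2.28 and Salmon on mm10, as the study's methods and the labels state. The deposited files hold the authors' estimated counts and TPM, per transcript in 56 libraries and per gene in 40. All CM and EC libraries and those of HC Days 1 and 7 were per transcript. All FB libraries and those of the other HC days were per gene. File kind thus coincides with cell type between FB and either CM or EC, and with day in HC at Days 1 and 7. Transcripts were summed per gene with GENCODE M21, and the estimated counts were rounded. Entries without a gene held at most 0.363% of reads and were left out. Whether counting used strand is not given in the sources used here. CPM were scaled by TMM. Genes that passed filterByExpr were tested with edgeR 4.0.16 (R 4.3.3, robust quasi-likelihood F test, Benjamini-Hochberg over all genes tested, called at 0.05), in 1 fit per cell type for the 5 later days against Day 0, and in further fits for FB days, FB against the other cell types at Day 0, and the EC change minus the FB change. SE were taken from the F statistic.

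Alternatives were DESeq2 1.42.0, limma 3.58.1 on log2(TPM + 1) and on log2(protein-coding TPM + 1), other size factors, no filter, only the 2 days compared, a replicate block, each library left out in turn, and the 8 libraries that stand apart left out. Protein-coding TPM and the comparison of Plod2 forms were added after the data were seen. The fit was also run on simulated counts with known changes in some genes and equal means in the rest. Shifts in composition between groups were not simulated, and no result here rests on that run. Replicates are pools of mice, which the study calls both biological and technical, so p-values measure the spread between pools. Cell types of a day came from the same mice, which the fits across cell types left out and a block by number within each day, added later, took up. The study removed 3 total RNA libraries as outliers, 2 of FB Day 3 and 1 of HC Day 28, without naming the replicates, and all 96 were used here. The 10 genes and the lists (collagen processing partners, substrates, hypoxia-inducible, ER folding and marker genes) were chosen with earlier results of these data known. Of each list, the 4 called genes with the largest changes in FB at Days 3 and 7 and a mean of at least 1 CPM were named.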

Additional observations from a re-analysis of the deposited data

Results flagged for a closer look

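In 16 of 245 groups of 4 libraries with enough reads, 1 library lay far from the other 3, and chance gives about 1 in 20 such groups. In CPM these were Lox in EC at Day 0 (replicate 1, 14.99), Loxl2 in EC at Day 0 (replicate 3, 72.65) and in HC at Day 3 (replicate 4, 85.56), and Loxl3 in CM at Day 14 (replicate 2, 0.9416), in HC at Day 1 (replicate 4, 5.503) and in HC at Day 28 (replicate 4, 54.75, against 10.57 to 14.67 in the others). The others were Plod1 in CM at Day 14 (replicate 1, 10.53) and FB at Day 3 (replicate 3, 79.85), Plod3 in EC at Day 3 (replicate 4, 56.52) and HC at Day 1 (replicate 4, 78.52), P4ha1 in CM at Day 28 (replicate 3, 14.87), P4ha3 in CM at Day 3 (replicate 2, 0.5451), and Serpinh1 in FB at Day 0 (replicate 4, 649.4) and Day 14 (replicate 4, 591.6). The share of the long Plod2 form was 32.92% in CM at Day 1 (replicate 2) and 32.2% in CM at Day 7 (replicate 2). Of these libraries, EC Day 0 replicate 1, HC Day 28 replicate 4 and FB Day 3 replicate 3 were also among the 8 that stand apart.

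The change in EC was larger than that in FB, by the test of the difference, for Lox (log2 1.80 at Day 3 and 1.41 at Day 7), Loxl1 (1.94 and 2.42), Loxl2 (0.64 and 1.26) and, at Day 3, Serpinh1 (0.68). Without the libraries that stand apart Lox, Loxl2 and Serpinh1 did not pass at Day 3 (edgeR adjusted p = 0.074, 0.104 and 0.528). Lox at Day 7 was lost in 10 of 16 fits without 1 library, and Loxl2 and Serpinh1 at Day 3 in 7 and 9.

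In 7 cases all libraries of a cell type lay below Day 0 where all libraries of another cell type lay above it, and the difference was not tested. How often this happens among all genes was not counted, so the cases are a list and not a result about these genes. In HC 42% and 46.4% of all genes tested were called at Days 1 and 3, in both directions. The cases in HC were Loxl1 at Day 1 (-0.79) and Day 3 (-0.53), Plod2 at Day 1 (-0.82) and Day 3 (-1.11) and Serpinh1 at Day 3 (-1.05). The other cases were Plod1 in EC (-0.34) and P4ha1 in CM (-0.52) at Day 1, where both genes lay above Day 0 in HC.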

How the results depend on the processing

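Counts are of the 10 genes called. On log2(TPM + 1) as deposited, tested with limma, the count was 0, 3, 1 and 0 in CM at Days 1, 7, 14 and 28, 1 and 10 in EC at Days 1 and 28, 0, 3, 2 and 0 in FB at Days 1, 7, 14 and 28, and 1, 3 and 3 in HC at Days 1, 3 and 14. It was 7 for FB Day 7 against Day 3 and 0 for Day 28 against Day 14. The sign turned there in FB at Day 3 against Day 0 for Loxl1 (-1.60), Loxl2 (-0.12), Plod1 (-1.54), Plod2 (-0.72), Plod3 (-1.05), P4ha1 (-1.37) and Serpinh1 (-1.40), and at Day 14 for Loxl1 (-0.51) and Plod3 (-0.17). It turned at Day 3 against Day 1 for Lox (-0.17), Plod1 (-1.35), Plod2 (-1.04), Plod3 (-1.48), P4ha1 (-1.02) and Serpinh1 (-1.31), and at Day 7 against Day 3 for Loxl2 (0.14), Loxl3 (0.10), Plod1 (1.11), Plod3 (1.38), P4ha1 (0.88), P4ha3 (0.77) and Serpinh1 (1.18). In the other cell types it turned for P4ha1 in CM at Day 3 (0.33) and in EC at Days 7, 14 and 28 (0.76, 0.40 and 0.78), and for Plod1 in EC at Day 1 (0.053). The cause was not tested, and the share of TPM held by protein-coding genes differed between these groups. For genes well below 1 TPM, such as the lysyl oxidases of CM at Day 0, the 1 added before the log shrinks a change.

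On protein-coding TPM the count was 0, 3 and 0 in CM at Days 1, 7 and 28, 2 and 10 in EC at Days 1 and 28, and 1 and 5 in FB at Days 1 and 28, and the sign turned for P4ha1 in CM at Day 7 (0.011) and in EC at Days 7, 14 and 28 (0.69, 0.23 and 0.83). With only the 2 days compared in the fit it was 1 and 0 in CM at Days 1 and 28 and 4 in FB at Day 28, where DESeq2 also gave 4. Without a filter on low counts it was 3 in EC at Day 1. Without the libraries that stand apart it was 3 in EC at Day 1, 5 for FB Day 28 against Day 14 and 1 for the EC change minus the FB change at Day 3. Median-of-ratios size factors and library sizes without ribosomal and mitochondrial genes kept every count within 1.5 times.

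Leaving out 1 library at a time, the lowest and highest counts were 2 to 4, 6 to 6, 4 to 6, 4 to 4 and 0 to 4 in CM at Days 1, 3, 7, 14 and 28, 3 to 7, 8 to 8, 8 to 8, 4 to 7 and 4 to 6 in EC, 4 to 4, 7 to 8, 5 to 6, 4 to 6 and 1 to 2 in FB, and 7 to 8, 7 to 8, 4 to 6, 4 to 4 and 5 to 5 in HC. Between FB days they were 4 to 6, 2 to 5, 0 to 0 and 1 to 2, for FB against the other cell types at Day 0 9 to 10, and for the EC change minus the FB change 2 to 4 at Day 3 and 2 to 3 at Day 7. The low values came without CM Day 0 replicates 2 or 4 or CM Day 1 replicates 1 or 3 (2 at CM Day 1), CM Day 0 replicates 1 or 2 (1 at CM Day 28), CM Day 0 replicates 3 or 4 or CM Day 28 replicates 3 or 4 (0), EC Day 0 replicates 1 or 2 or EC Day 1 replicate 4 (3 at EC Day 1), FB Day 0 replicates 2 or 4 or FB Day 28 replicates 1 or 4 (1 at FB Day 28), FB Day 1 replicates 3 or 4 or FB Day 3 replicate 4 (4 at FB Day 3 against Day 1), FB Day 3 replicate 4 (2 at Day 7 against Day 3), FB Day 14 replicates 1 or 3 or FB Day 28 replicates 2 or 4 (1 at Day 28 against Day 14) and EC Day 0 or EC Day 3 replicates 1 or 2 or FB Day 0 replicate 1 (2 for the EC change minus the FB change at Day 3).

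With the replicate number as a block, every count stayed within 1.5 times, for example 4 in CM at Day 1, 5 in EC at Day 1 and 7 in FB at Day 3, while 5 single calls were lost and 1 was gained. The deviations of same-numbered libraries of different days, which hold different mice, correlated between -0.517 and 0.474. They all passed 0.1 in CM at Days 1 and 3 against Day 0 (0.280 to 0.467 and 0.220 to 0.474), where the block changed no call. The cell types of a day share mice, but the sources used here do not say that the number marks them, and same-numbered EC and FB libraries correlated between -0.204 and 0.146. With the number within each day as a block, added after the data were seen, 4 genes were called for the EC change minus the FB change at Day 3 and 2 at Day 7, where Lox was lost (1.42). Depth limits P4ha3 in CM and the Loxl3 values of CM, which rest on few reads.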
